A study of Mus musculus with 40 samples.

Results

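The libraries described here were made from the untagged synaptoneurosome fraction (SNF) of RBP4-TRAP and VGAT-TRAP mice, with 5 libraries of each line, or 10 of the 40 libraries of the series. They were chosen by their labels, which name the fraction and the strain. TRAP (translating ribosome affinity purification) pulls down ribosomes that carry a GFP tag, and no such step was applied to SNF. A difference between the lines in SNF is therefore a measure of strain and preparation before any tagged ribosome was captured.

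Both lines carried a Cre-dependent reporter at Gt(ROSA)26Sor that makes the ribosomal protein Rpl10a fused to EGFP. In RBP4-TRAP mice the Cre came from the transgene Tg(RBP4-cre)KL100, which is active in layer 5 pyramidal neurons of the cortex. In VGAT-TRAP mice it came from a knock-in at Slc32a1, the gene of the vesicular GABA transporter, and is active in GABAergic neurons. All mice were 21 d old and carried both Cre and reporter, so that a library without either was not among those used here. The tissue is labelled cortex, but the protocol describes dissected forebrain, with several animals combined per replicate and no fixed ratio of males to females. Every such pool gave an SNF library and 3 others, one of the homogenate before fractionation (WCH), one of tagged ribosomes from the homogenate (TRAP) and one of tagged ribosomes from the SNF (SynapTRAP, or ST). The 4 fractions thus share their pools, and a line difference seen in several fractions rests on the same 5 and 5 pools.

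A synaptoneurosome preparation enriches pinched-off presynaptic and postsynaptic endings on a density gradient. It also carries fragments of glial processes, myelin and mitochondria. Messenger RNAs that travel into dendrites and axons, such as those of Camk2a and Shank3, can be translated there. SNF holds RNA of the endings of all neurons and of glia in the forebrain, whether or not these cells carry the tag.

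SNF libraries held between 14433907 and 19485322 counts. Between 8950847 and 17293854 counts remained without genes of the mitochondrial genome and without rRNA and tRNA genes, so that 1 count was worth between 0.0578 and 0.112 cpm (counts per 1000000 counts). Levels below are cpm of these remaining counts, with replicates given in the order 1 to 5, and fold changes are RBP4 over VGAT on the log2 scale from edgeR.

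As a check of the fraction, marker lists in SNF were set against WCH within each line. The median log2 difference of SNF and WCH over all genes was -0.36 in RBP4 and -0.37 in VGAT libraries. It was 1.47 and 1.6 for astrocyte genes, 0.99 and 1.09 for myelin genes, and 0.27 and 0.34 for dendritic and postsynaptic mRNAs. It was -0.77 and -0.71 for immediate early genes and -1.66 and -1.78 for red blood cell genes. Nuclear long noncoding RNAs had -1.05 and -0.47, and presynaptic genes 0.005 and -0.35. In the VGAT line the median of the nuclear RNAs was thus close to that of all genes. Their mean summed level was nevertheless lower in SNF than in WCH in both lines. It was 7113 against 25180 cpm in RBP4 and 7828 against 20630 cpm in VGAT libraries. Malat1 alone was at 6069 against 17200 cpm in VGAT libraries. Medians of astrocyte, myelin and dendritic RNAs were above 0 in both lines. Those of microglia genes (1.37 and 1.56) and of meningeal and fibroblast genes (1.275 and 1.545) were above that of the dendritic mRNAs. GABAergic neuron genes had 0.76 and 0.83, whereas layer 5 and pyramidal neuron genes had -0.86 and -0.79.

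Some libraries stood apart. Replicate 3 of both lines had the highest shares of mitochondrial counts, 40.2% in RBP4 and 41.9% in VGAT libraries, against 11.2 to 19.4% in the other 8 libraries. Astrocyte genes were highest in the same 2 libraries, where Slc1a2, the main glutamate transporter of astrocytes, was at 18200 and 18230 cpm against 6272 to 8958 cpm elsewhere. The mitochondrial share was 20.3 ± 11.5% in RBP4 and 21.4 ± 11.7% in VGAT libraries (SD, n = 5 each), a difference of -1.06 percentage points (exact 2-sided permutation test over samples, p = 0.746). Without replicate 3 of both lines the shares were 15.3 ± 3.16% and 16.3 ± 2.94% (n = 4 each; exact permutation p = 0.657). These shares overlapped between the lines, and both lines held libraries at each end.

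**Figure D1:**
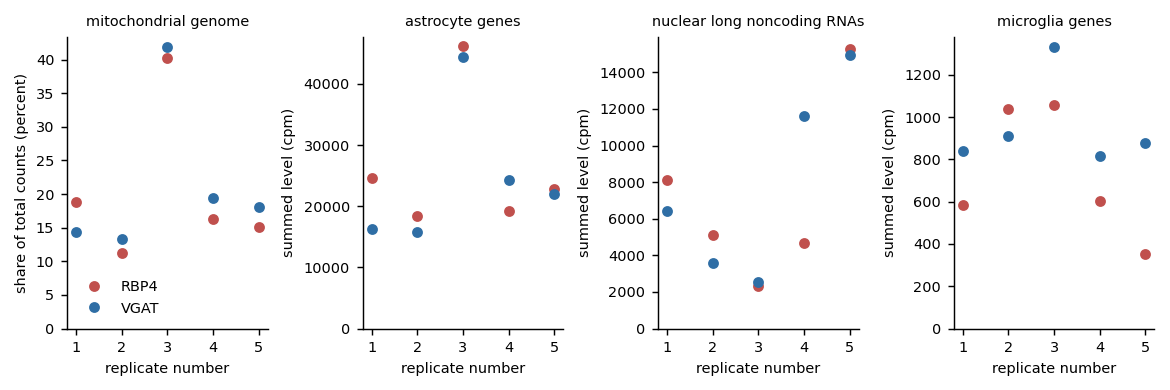
Share of counts from the mitochondrial genome (percent of total counts) and summed levels (cpm) of astrocyte genes, nuclear long noncoding RNAs and microglia genes in each SNF library, by replicate number and line, where each point is a library. Replicate 3 of both lines had the highest mitochondrial shares, 40.2% and 41.9%, and the highest astrocyte sums, 46180 and 44330 cpm.

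The pools also differed in sex-linked RNA. Xist, which is made from the inactive X chromosome of female cells, was at 51.4, 0.124, 16.4, 0.590 and 1.05 cpm in the RBP4 WCH libraries and at 27.1, 17.1, 22.0, 32.1 and 27.6 cpm in the VGAT WCH libraries. RBP4 pools 2, 4 and 5 were thus at most 1.05 cpm, below every VGAT pool. In SNF, Xist was at 269, 0.231, 4.89, 0.601 and 1.55 cpm in the RBP4 line and at 9.96, 6.59, 2.23, 125.5 and 203.7 cpm in the VGAT line. The Y-linked genes Ddx3y (57.0 ± 23.4 against 34.8 ± 4.46 cpm) and Eif2s3y (42.4 ± 30.3 against 21.7 ± 7.02 cpm) had higher means in RBP4 SNF, with unadjusted p = 0.00872 and 0.0180 (edgeR; adjusted p = 0.980 for both). Ranges of both genes overlapped between the lines. The sex makeup of the pools is therefore part of what the line comparison holds. Its part in the results below was not tested beyond leaving RBP4 pools 2, 4 and 5 out, which kept RBP4 replicates 1 and 3 alone.

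No gene passed the test between the lines in SNF. Of 15898 genes tested with edgeR's quasi-likelihood test, 0 had an adjusted p of at most 0.05 (0.0%), and the smallest adjusted p was 0.245. At an unadjusted p under 0.05 there were 799 genes (5.03%), of which 409 (2.57%) were estimated higher in RBP4 and 390 (2.45%) higher in VGAT libraries. DESeq2 called 11 genes and edgeR's likelihood ratio test called 7. With the replicate number as a block, the quasi-likelihood test called 14, and 1714 genes had an unadjusted p under 0.05. Whether same-numbered pools were prepared together is not given in the sources used here. For 155 genes (0.975%) all libraries of one line lay above all libraries of the other, 68 of them (0.428%) with RBP4 above and 87 (0.547%) with VGAT above. Without the 3 RBP4 pools low in Xist, the quasi-likelihood test also gave 0 calls, with 773 genes at an unadjusted p under 0.05. That fit kept RBP4 replicates 1 and 3 alone. Since all libraries had already given 0, it cannot tell whether these pools mattered for the count. Without replicate 3 of both lines the quasi-likelihood test called 1 gene, Wdfy1, with 1042 at an unadjusted p under 0.05.

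How large a line difference these libraries could hold was read from the fold changes and their intervals. The median log2 fold change over all genes was 0.006, the median of its absolute value was 0.167 and the median standard error was 0.223. Estimates exceeded 2-fold for 205 genes (1.29%), and 90.6% of genes were within 0.5 of no change on the log2 scale. The 95% interval lay within 2-fold in either direction for 74.9% of genes. That share was 97.9% of the 1928 genes with a mean over 100 cpm and 96.4% of the 6739 genes at 10 to 100 cpm. It was 65.6% of the 5199 genes at 1 to 10 cpm. Under 1 cpm it was 5.46% of the 2032 genes, so that a 2-fold difference was not excluded for nearly all of them. An interval shows which differences are excluded, not which would pass the adjusted threshold. Fold changes of 2.19 for Ccl17 and 1.41 for Wdfy1, given below, did not pass (edgeR adjusted p = 0.245 and 0.320).

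**Figure D2:**
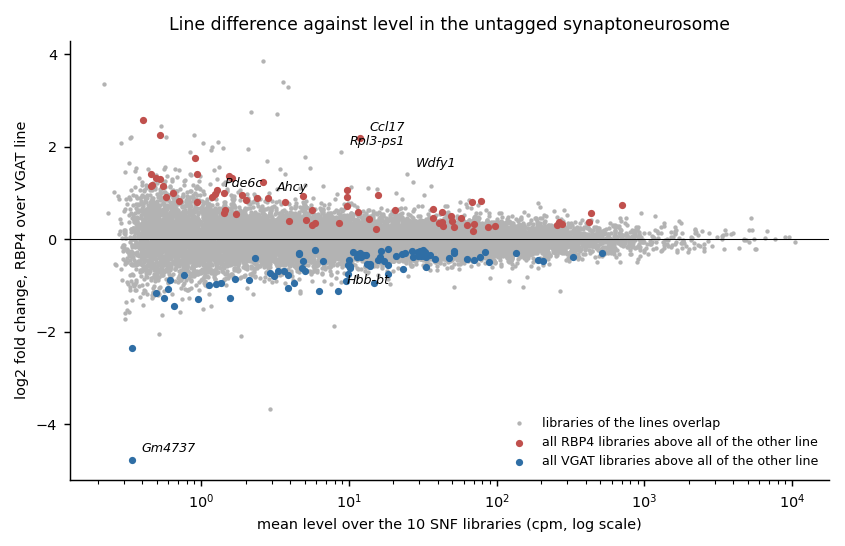
Log2 fold change (RBP4 over VGAT line) against mean level in SNF (cpm, log axis) for the 15898 genes tested, where each point is a gene. Coloured points are the 155 genes whose libraries of the lines do not overlap, and the cloud widens toward low levels, where 5.46% of genes under 1 cpm have an interval within 2-fold.

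The same contrast was read in the other fractions. In WCH, 3 of 16383 genes passed edgeR's adjusted threshold (0.0183%), 1403 had an unadjusted p under 0.05 and 203 (1.24%) had estimates over 2-fold. DESeq2 called 40 genes in WCH and the likelihood ratio test 41, and without RBP4 replicate 2 edgeR called 18. In TRAP, 5162 of 15319 genes passed (33.7%), 2310 higher in the RBP4 line (15.1%) and 2852 higher in the VGAT line (18.6%), and 2879 (18.8%) were over 2-fold. In ST, 0 of 15944 passed with edgeR (0.0%), while 838 had an unadjusted p under 0.05 (5.26%), DESeq2 called 22 and 673 (4.22%) were over 2-fold. The share of genes over 2-fold in SNF was thus close to that in the homogenate and below those of both tagged fractions. The fractions differed in precision, with a median standard error of 0.223 in SNF, 0.173 in WCH, 0.197 in TRAP and 0.292 in ST. These shares therefore mix noise with line difference and do not rank SNF, WCH and ST by the size of their line differences. Beside TRAP, SNF had the larger median standard error but the smaller median absolute log2 fold change (0.167 against 0.391 in TRAP).

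**Figure D3:**
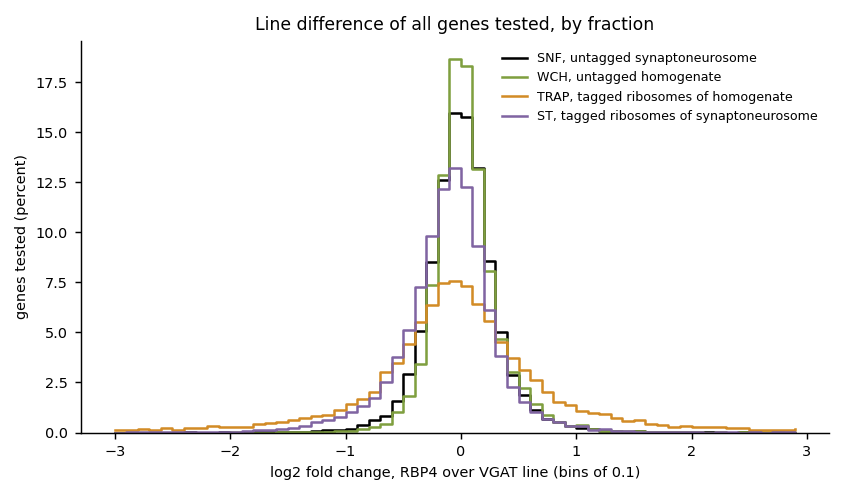
Percent of genes tested in bins of log2 fold change (RBP4 over VGAT line) for the SNF, WCH, TRAP and ST libraries, each line of the plot being a fraction of 5 libraries per mouse line. In SNF and WCH, 90.6% and 91.4% of genes lie within 0.5 of no change, against 58.9% in TRAP and 81.3% in ST.

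Whether a line difference in SNF differed from that in WCH was tested as an interaction over the 20 libraries. That fit had group as its variable and took the SNF and WCH libraries of a pool as unrelated. Of 16957 genes, 0 passed with edgeR (0.0%, smallest adjusted p 0.9998) and DESeq2 called 0. An unadjusted p under 0.05 was reached by 173 genes (1.02%). With the pool as a block, which pairs the SNF and WCH libraries of each pool, 363 genes reached it, and 0 passed. The 0 calls therefore do not show that both fractions had the same line differences. Libraries of SNF resembled each other across lines. By Spearman correlation over genes, the closest other SNF library of RBP4 replicates 1, 2, 3 and 4 was a VGAT library (0.988, 0.989, 0.986 and 0.989), and that of VGAT replicate 3 was RBP4 replicate 3 (0.986). The other 5 libraries were closest to a library of their own line.

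The genes that set the lines apart by construction were looked at first. Slc32a1, which carries the Cre in the VGAT line, was at 35.5, 44.2, 24.2, 37.8 and 27.1 cpm in RBP4 SNF and at 32.7, 35.7, 19.9, 26.8 and 23.9 cpm in VGAT SNF. These ranges overlapped, and the log2 fold change was 0.28 (standard error, SE, 0.20, 95% interval -0.15 to 0.71, edgeR adjusted p = 0.985). In TRAP the same gene was at 2.88 ± 1.4 cpm in RBP4 and 58.4 ± 11.6 cpm in VGAT libraries (log2 fold change -4.34, edgeR adjusted p = 1.62e-07).

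Rbp4 itself, the gene of plasma retinol-binding protein whose regulatory sequence drives the transgene, was at 22.6, 41.2, 25.6, 23.2 and 16.6 cpm in RBP4 SNF and at 29.6, 37.2, 25.9, 33.8 and 31.9 cpm in VGAT SNF. Its log2 fold change was -0.29 (SE 0.21, 95% interval -0.74 to 0.16, edgeR adjusted p = 0.985). Its TRAP levels were 21.4 ± 4.55 cpm in RBP4 and 115.7 ± 21.7 cpm in VGAT libraries. Transcripts of the endogenous gene were thus not at a higher level in the tagged cells of the RBP4 line than in those of the VGAT line.

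The genes of the reporter had estimates near 0. Gt(ROSA)26Sor, the noncoding gene that holds the reporter, was at 14.5 ± 5.61 cpm in RBP4 and 14.1 ± 3.0 cpm in VGAT SNF, with a log2 fold change of 0.04 (95% interval -0.49 to 0.58). Rpl10a was at 1.44 ± 0.617 and 1.24 ± 0.653 cpm, with a log2 fold change of 0.21 (95% interval -0.64 to 1.06). Its level is uncertain, since ribosomal protein genes have many near-identical copies and uniquely aligned reads were counted. Genes within 500 kb of these loci were set against edgeR's adjusted threshold in SNF. Of those tested, 0 of 7 at endogenous Rbp4, 0 of 13 at Slc32a1 and 0 of 20 at Gt(ROSA)26Sor passed (0.0% of all genes). An unadjusted p under 0.05 was reached by 1, 0 and 0, against 5.03% of all genes. Within 5000 kb 0 of 81, 107 and 80 passed. At Slc32a1, 6 of these 107 reached it with the higher estimate in RBP4 and 4 in VGAT libraries. Libraries of 4 did not overlap (0.975% of all genes). At Rbp4 these numbers were 2, 2 and 3, and at Gt(ROSA)26Sor 1, 1 and 0. Ahcy and Cbfa2t2, given below, lie in the window at Slc32a1.

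The gene within 500 kb at an unadjusted p under 0.05 was Pde6c, the catalytic subunit of the cone photoreceptor phosphodiesterase. It lies next to Rbp4 (chromosome 19, 38132781 to 38183947, plus strand, GRCm38). It was at 2.0, 1.21, 1.66, 1.5 and 1.96 cpm in RBP4 SNF and at 1.14, 0.941, 0.670, 0.471 and 0.912 cpm in VGAT SNF. The ranges did not overlap, but the log2 fold change of 0.98 (SE 0.34) did not pass (edgeR unadjusted p = 0.0102, adjusted p = 0.980). It did pass in WCH, where it was 2.0 (3.18 ± 0.385 against 0.787 ± 0.225 cpm, edgeR adjusted p = 0.00550), and in TRAP, where it was 4.14 (12.3 ± 3.74 against 0.697 ± 0.263 cpm, edgeR adjusted p = 5.26e-07). In the interaction fit, which left the libraries of a pool unpaired, the difference in SNF less that in WCH was not past the threshold. It was -1.03 on the log2 scale (edgeR adjusted p = 0.9998).

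The other 2 genes that passed in WCH, Wdfy1 and Gm4737, had with Ccl17 the 3 smallest p in SNF. Wdfy1, a WD repeat and FYVE domain protein of endosomes (chromosome 1, 79702262 to 79776143, minus strand), was at 36.4, 33.8, 17.2, 43.3 and 49.3 cpm in RBP4 SNF and at 15.2, 10.9, 9.05, 15.1 and 17.5 cpm in VGAT SNF. Only RBP4 replicate 3 reached into the range of the VGAT line, below VGAT replicate 5. The log2 fold change was 1.41 (SE 0.25, 95% interval 0.87 to 1.94), with an edgeR adjusted p of 0.320. It was 1.12 in WCH (edgeR adjusted p = 0.00635), 1.47 in TRAP (adjusted p = 1.50e-04) and 1.56 in ST (adjusted p = 0.0534). Without replicate 3 of both lines it was 1.47 with an edgeR adjusted p of 0.00722. Without RBP4 replicate 3 alone Wdfy1 was likewise the only gene called in SNF. Without the 3 pools low in Xist, where RBP4 replicates 1 and 3 were kept, its estimate was 0.98 with an adjusted p of 0.932.

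Gm4737 (chromosome 16, 46152997 to 46155077, minus strand) was counted almost only in the VGAT line. The RBP4 SNF libraries held 0, 0, 1, 0 and 0 counts and the VGAT SNF libraries 18, 6, 5, 9 and 6 counts. With 1 count against 44, the ratio of VGAT to RBP4 was 45.2, with an exact 95% interval of 7.69 to 1823 that covers counting error only. The edgeR adjusted p was 0.245. The counts in the other fractions were 5 against 84 in WCH (ratio 15.8, interval 6.51 to 50.0), where the gene passed (edgeR adjusted p = 0.00625), 7 against 144 in TRAP and 5 against 65 in ST.

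Gm4737 is nearly identical to Ahcy, the gene of S-adenosylhomocysteine hydrolase, which breaks down the product of cellular methylation reactions (chromosome 2, 155059310 to 155074497, minus strand). In the annotated transcripts 2086 bases align with 99.664% identity and 7 mismatches, 4 of them in the coding sequence of Ahcy. Reads of the aligned stretch that cover none of these positions fit both genes alike, and so the windows around the 4 coding differences are shown. The other 3 differences lie in the untranslated part of Ahcy, at chromosome 2, 155060141, 155060137 and 155059728 (GRCm38), and are not shown. The capital marks the base that differs, and positions count from 1 at the start of the Ahcy coding sequence with the Ahcy base first.
Ahcy, C459T: catccgaggtatCtctgaggagacc
Gm4737, C459T: catccgaggtatTtctgaggagacc
Ahcy, G474A: tgaggagaccacGactggggtccac
Gm4737, G474A: tgaggagaccacAactggggtccac
Ahcy, C1050T: cctgggttgtgcCatgggacacccc
Gm4737, C1050T: cctgggttgtgcTatgggacacccc
Ahcy, C1068T: acaccccagcttCgtgatgagcaac
Gm4737, C1068T: acaccccagcttTgtgatgagcaac

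Estimates of the copies had opposite signs. Ahcy, which was chosen after its values were seen, was at 2.85, 3.35, 3.32, 4.13 and 4.65 cpm in RBP4 SNF and at 2.22, 2.61, 2.01, 1.65 and 1.37 cpm in VGAT SNF. The ranges did not overlap, and the log2 fold change of 0.89 (SE 0.26) did not pass (edgeR unadjusted p = 0.00361, adjusted p = 0.980). The sum of Ahcy and Gm4737 was 3.68 ± 0.709 cpm in RBP4 and 2.63 ± 0.598 cpm in VGAT libraries, and its ranges overlapped (2.85 to 4.65 against 1.82 to 3.36 cpm). In TRAP the sums were 7.04 ± 0.463 and 6.83 ± 1.37 cpm. The level of each copy alone is therefore uncertain in these counts.

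A further pair of this kind was Rpl3-ps1, an X-linked processed copy of the ribosomal protein gene Rpl3, with 99.835% identity over 1210 bases. Rpl3-ps1, also chosen after its values were seen, was at 15.3, 6.36, 13.5, 13.6 and 20.8 cpm in RBP4 SNF and at 5.33, 1.23, 3.24, 1.73 and 7.15 cpm in VGAT SNF. Only RBP4 replicate 2 lay within the range of the VGAT line, and the log2 fold change was 1.88 (SE 0.41, edgeR adjusted p = 0.881). Rpl3 was at 36.9 ± 8.03 and 44.7 ± 13.0 cpm (log2 fold change -0.28), and the sum of both was 50.8 ± 10.3 and 48.4 ± 12.1 cpm.

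**Figure D4:**
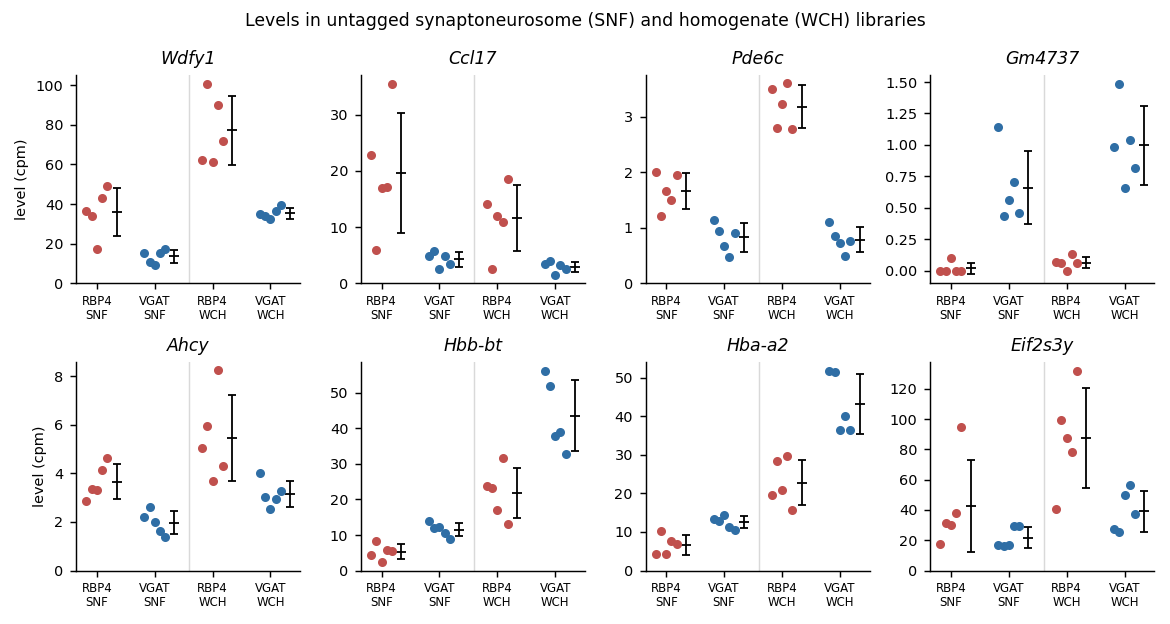
Levels (cpm) of 8 genes in the SNF and WCH libraries of each line, where each point is a library and the bar beside the points gives the mean and SD (n = 5). Ccl17, Pde6c and Ahcy in SNF lie wholly above the VGAT line, Gm4737, Hbb-bt and Hba-a2 lie wholly below it, and Wdfy1 and Eif2s3y overlap between the lines.

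Ccl17, a chemokine that attracts T cells (chromosome 8, 94810453 to 94812035, plus strand), had the smallest p of the genes with higher levels in the RBP4 line. It was at 22.8, 5.96, 16.9, 17.1 and 35.5 cpm in RBP4 SNF and at 4.82, 5.79, 2.46, 4.87 and 3.35 cpm in VGAT SNF. RBP4 replicate 2 lay just above the highest VGAT library, and the other 4 were well above it. The log2 fold change was 2.19 (SE 0.36, 95% interval 1.41 to 2.96, edgeR adjusted p = 0.245), and without RBP4 replicate 2 it was the only gene called by edgeR. It was 1.98 in WCH (edgeR adjusted p = 0.203), 2.20 in TRAP (adjusted p = 5.93e-05) and 2.38 in ST (adjusted p = 0.447).

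Of the genes that averaged 1 cpm or more and whose libraries did not overlap, the 10 of smallest p on each side were taken, and none of these passed with edgeR's quasi-likelihood test. DESeq2 called 5 of them, Ccl17, Amn, Cbfa2t2, Pla2g4e and Hbb-bt, with adjusted p from 1.49e-05 for Ccl17 to 0.0410 for Hbb-bt, and the likelihood ratio test called Ccl17 and Amn. With higher levels in RBP4 SNF, besides Ccl17, these were Amn, a subunit of the cubilin receptor, Agt, the angiotensinogen made by astrocytes, Pla2g4e, a cytosolic phospholipase, Cbfa2t2, a transcriptional corepressor, Ngb, the neuronal globin, Plekhd1, Lrrc8a, a subunit of the volume-regulated anion channel, C1qtnf4, a secreted C1q-like protein, and Pcsk4, a proprotein convertase. Their log2 fold changes ran from 0.74 for Lrrc8a to 1.33 for Pcsk4, with edgeR adjusted p from 0.872 for Amn to 0.980. Agt was at 127.4, 71.2, 114.6, 95.9 and 91.2 cpm in the RBP4 line and at 69.6, 61.8, 59.9, 52.3 and 39.8 cpm in the VGAT line, so that the ranges nearly met. Lrrc8a, the most abundant of these, was at 886 ± 235 against 530 ± 58.4 cpm. Cbfa2t2 was at 86.4 ± 17.9 against 49.4 ± 10.1 cpm, and Amn at 12.6 ± 2.52 against 6.67 ± 1.11 cpm.

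The TRAP libraries come from the same pools, and 15.1% of all genes passed there with the higher level in the RBP4 line. Of these 10 genes 4 did so. Besides Ccl17, Pla2g4e had a log2 fold change in TRAP of 1.93 (edgeR adjusted p = 7.13e-05), Cbfa2t2 of 1.42 (adjusted p = 2.33e-04) and Pcsk4 of 1.72 (adjusted p = 5.95e-04), whereas in SNF they were 1.06, 0.80 and 1.33. C1qtnf4 had 0.96 in SNF and -0.27 in TRAP (adjusted p = 0.367).

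With higher levels in VGAT SNF these were the globins Hbb-bt and Hba-a2, S100a11, a calcium-binding protein, Top2a, a topoisomerase of dividing cells, the histone gene Hist3h2a, Ddit4l, an inhibitor of mTOR signalling, Acvrl1, a receptor of the TGF-beta family in endothelium, Wdyhv1, an N-terminal glutamine amidase, 2810006K23Rik, and Alg14, an enzyme of N-glycan synthesis. Their log2 fold changes ran from -0.52 for 2810006K23Rik to -1.26 for S100a11, with edgeR adjusted p from 0.881 for Hbb-bt to 0.980. Top2a was at 2.51 ± 0.601 cpm in RBP4 and 5.26 ± 1.53 cpm in VGAT libraries, and S100a11 at 0.918 ± 0.222 and 2.23 ± 0.570 cpm. Ddit4l was at 20.3 to 31.7 cpm in the RBP4 line and at 33.4 to 47.9 cpm in the VGAT line.

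In TRAP, 18.6% of all genes passed with the higher level in the VGAT line, and of these 10 genes 5 did so. The globins are given below. Acvrl1 (-0.94 in SNF and -2.48 in TRAP, edgeR adjusted p = 2.35e-05 in TRAP) and Wdyhv1 (-0.58 and -0.92, adjusted p = 0.00591 in TRAP) were among them, as was 2810006K23Rik (-0.52 and -0.68, adjusted p = 0.00756 in TRAP). S100a11 (0.75) and Ddit4l (0.68) had the other sign in TRAP, where the adjusted p was 0.169 for S100a11 and 0.0488 for Ddit4l.

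Red blood cell genes were the list with the largest share of members at an unadjusted p under 0.05. Of 5 genes tested 4 reached it, against 5.03% of all genes, all with the higher estimate in the VGAT line. With edgeR 0 passed the adjusted threshold, and DESeq2 called Hbb-bt (adjusted p = 0.0410). The median log2 fold change was -0.72 in SNF, against 0.006 over all genes, and -0.81 in WCH. Hbb-bt, an adult beta globin, was at 4.38, 8.27, 2.54, 5.78 and 5.38 cpm in RBP4 SNF and at 13.8, 12.1, 12.3, 10.5 and 8.89 cpm in VGAT SNF (log2 fold change -1.11, standard error 0.25, edgeR adjusted p = 0.881). Every VGAT library lay above every RBP4 library. Hba-a2, an alpha globin, was at 4.31, 10.3, 4.2, 7.58 and 6.93 cpm against 13.4, 13.0, 14.4, 11.3 and 10.5 cpm (log2 fold change -0.90). The more abundant Hbb-bs was at 30.5 ± 15.1 and 48.3 ± 8.40 cpm (-0.66, unadjusted p = 0.0343), and its ranges overlapped.

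Globin pairs share sequence, since Hba-a1 and Hba-a2 are 99.814% identical over 538 bases and Hbb-bs and Hbb-bt 93.596% over 609, and so the summed level was read as well. The sum of the list was 37.7, 80.4, 27.8, 56.8 and 83.7 cpm in the RBP4 line and 113.6, 95.9, 102.3, 84.6 and 75.4 cpm in the VGAT line. Only VGAT replicate 5 reached into the range of the RBP4 line. In the homogenate the sums were higher, 156.5 to 269.7 cpm in RBP4 and 270.0 to 406.0 cpm in VGAT libraries. In bulk RNA fewer cells of a type and less RNA per cell cannot be told apart. In TRAP the levels were lower still, and there Hbb-bt was at 1.29 ± 0.380 cpm in RBP4 and 3.79 ± 2.08 cpm in VGAT libraries (log2 fold change -1.55, edgeR adjusted p = 0.00444). The log2 fold change of Hba-a2 in TRAP was -1.17 (adjusted p = 0.00719), so that these globins passed in TRAP but not in SNF, and the difference between these fractions was not tested. Without the 3 pools low in Xist the log2 fold changes of Hbb-bt and Hba-a2 were -1.72 and -1.55 (edgeR adjusted p = 0.301 and 0.147), and without replicate 3 of both lines they were -0.92 and -0.72 (adjusted p = 0.648 and 0.665).

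Neuronal genes were examined as lists, since the lines tag different neurons. Of 22 GABAergic neuron genes 0 passed with edgeR or DESeq2 and 3 had an unadjusted p under 0.05 (13.6%, against 5.03% of all genes), 2 with the higher estimate in RBP4 and 1 in VGAT libraries. Estimates were higher in the VGAT line for 15, with a median of -0.15, against 7812 of 15898 and a median of 0.006 over all genes. Calb2, the calcium-binding protein calretinin, was at 29.6, 23.4, 14.9, 29.4 and 50.2 cpm in the RBP4 line and at 22.8, 16.2, 11.1, 18.0 and 12.1 cpm in the VGAT line, with overlapping ranges and a log2 fold change of 0.88 (edgeR adjusted p = 0.980).

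The neuropeptides that mark interneurons had small estimates in SNF beside their differences in TRAP. Sst, somatostatin, was at 568 ± 164 and 658 ± 106 cpm in SNF (log2 fold change -0.21, 95% interval -0.63 to 0.21), while in TRAP the log2 fold change was -4.29 (edgeR adjusted p = 1.84e-09). Cort, cortistatin, had -0.14 in SNF (95% interval -0.49 to 0.21) and -3.74 in TRAP. Npy, neuropeptide Y, had -0.32 in SNF (95% interval -0.79 to 0.14) and -4.99 in TRAP.

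Layer 5 and pyramidal neuron genes had a median of -0.11 in SNF. The higher estimate was in the VGAT line for 13 of 18, against 7812 of 15898 of all genes. Of these 18, 1 had an unadjusted p under 0.05 with the higher estimate in RBP4 and 2 in VGAT libraries (16.7% in all, against 5.03% of all genes), and 0 passed with edgeR or DESeq2. Crym, the thyroid hormone-binding protein mu-crystallin, had a log2 fold change of 0.57 and Tbr1, a transcription factor of deep-layer neurons, of -0.35 (unadjusted p = 0.0232 and 0.0466). Slc17a7, the vesicular glutamate transporter VGLUT1, was at 784 ± 147 and 867 ± 177 cpm (log2 fold change -0.14, 95% interval -0.53 to 0.24), and in TRAP its log2 fold change was 3.24 (edgeR adjusted p = 1.29e-04). Estimates of the GABAergic and of the pyramidal list were thus mostly of the same sign in SNF.

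Striatal projection neuron genes bear on the dissection. Their median was -0.18 in SNF and -0.18 in WCH. The higher estimate was in the VGAT line for 14 of 18 genes, against 7812 of 15898 of all genes. Of the 18, 1 had an unadjusted p under 0.05 (5.56%, against 5.03% of all genes). With edgeR 0 passed the adjusted threshold, while DESeq2 called 1. Penk, proenkephalin, was at 571 ± 145 and 797 ± 275 cpm (-0.48, unadjusted p = 0.0814). The summed list was 904 to 1751 cpm in RBP4 and 1161 to 2427 cpm in VGAT libraries.

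Lists of other regions showed no common direction. Medians were -0.01 for 12 hippocampal genes, -0.06 for 14 thalamic and hypothalamic genes, -0.09 for 6 cholinergic neuron genes, 0.02 for 10 choroid plexus and ependymal genes and 0.38 for 4 olfactory bulb genes. Of all these genes, 1 had an unadjusted p under 0.05 (7.14% of the thalamic and hypothalamic list, against 5.03% of all genes). It was Pmch, the precursor of melanin-concentrating hormone of the hypothalamus, which was at 24.9, 1.74, 0.335, 0.157 and 0.152 cpm in the VGAT line and at 0.245 to 0.636 cpm in the RBP4 line. The estimate of -3.66 (unadjusted p = 0.00704, edgeR adjusted p = 0.980) thus rests on VGAT replicate 1.

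**Figure D5:**
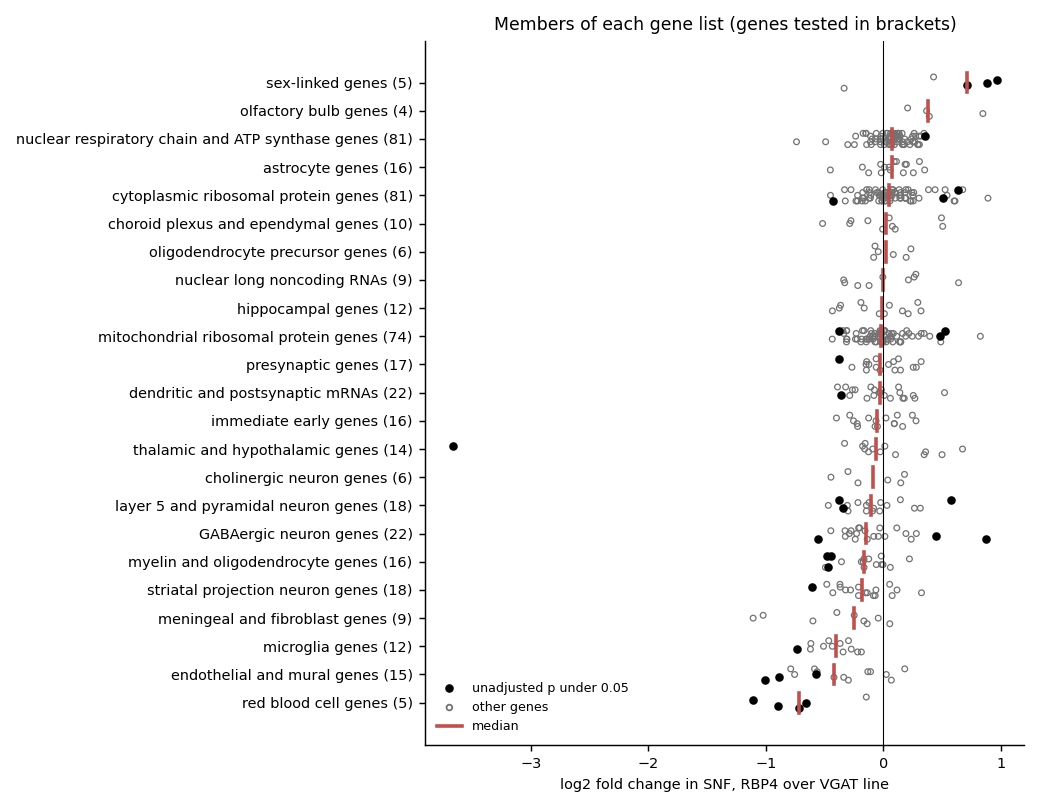
Log2 fold change in SNF (RBP4 over VGAT line) of each tested member of the gene lists, where a filled point has an unadjusted p under 0.05, an open point has not, and the red bar is the median of the list. Medians run from -0.72 for red blood cell genes to 0.71 for sex-linked genes, and no member passes edgeR's adjusted threshold.

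Among glia, microglia genes all had estimates on the same side. The 12 tested genes had the higher estimate in the VGAT line, against 7812 of 15898 of all genes. Their median was -0.40 in SNF and -0.30 in WCH. Of the 12, 1 had an unadjusted p under 0.05 (8.33%, against 5.03% of all genes) and 0 passed with edgeR or DESeq2. Tmem119, a microglial membrane protein, was at 6.0, 10.8, 6.06, 8.11 and 3.51 cpm in the RBP4 line and at 11.6, 11, 15.6, 8.32 and 11.3 cpm in the VGAT line (log2 fold change -0.73, unadjusted p = 0.0133, edgeR adjusted p = 0.980; -0.56 without replicate 3 of both lines). Its ranges overlapped, as did the sums of the list, which were 352 to 1058 cpm in RBP4 and 814 to 1331 cpm in VGAT libraries. Ctss, the microglial cathepsin S, was at 192 ± 91.4 and 232 ± 68.3 cpm (-0.27), and without the 3 pools low in Xist its estimate was 0.01.

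Myelin and oligodendrocyte genes had the higher estimate in the VGAT line for 14 of 16, against 7812 of 15898 of all genes, with a median of -0.17. Of the 16, 3 had an unadjusted p under 0.05 (18.8%, against 5.03% of all genes) and 0 passed the adjusted threshold with edgeR. Aspa, the aspartoacylase of oligodendrocytes, had -0.47 and Ermn, ermin of the myelin sheath, -0.44. The summed myelin list overlapped between the lines. Oligodendrocyte precursor genes had a median of 0.02 over 6 genes.

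Astrocyte genes had a median of 0.07 over 16 genes, with 0 at an unadjusted p under 0.05. Slc1a2 had a log2 fold change of 0.05 (95% interval -0.67 to 0.77) and Aqp4, the water channel of astrocyte endfeet, of -0.45 (95% interval -1.05 to 0.15). Both intervals are wide, and replicate 3 of both lines had sums of the list of 46180 and 44330 cpm against 15800 to 24680 cpm in the other 8 libraries.

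Vessel genes had medians of opposite sign in SNF and WCH. Endothelial and mural genes had a median of -0.42 in SNF and 0.15 in WCH over 15 genes, with the higher estimate in the VGAT line for 12 in SNF (7812 of 15898 over all genes). Of the 15, 3 had an unadjusted p under 0.05 (20.0%, against 5.03% of all genes), and 0 passed edgeR's threshold in SNF, in WCH or in the interaction. Ly6c1 was at 4.74 ± 2.30 and 8.79 ± 5.08 cpm (-0.89) and Abcb1a, the drug efflux pump of the blood-brain barrier, at 3.43 ± 0.828 and 5.15 ± 0.724 cpm (-0.58). The summed list was 346 to 608 cpm in RBP4 and 392 to 508 cpm in VGAT libraries, and these ranges overlapped. Meningeal and fibroblast genes had a median of -0.25 over 9 genes, and VGAT replicate 3 held 1330 cpm of the collagen gene Col1a1 against 56.9 to 188 cpm in the other VGAT libraries. Without that library the estimate for Col1a1 changed from -1.11 to 0.42.

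Synaptic and localized RNAs, which SNF is made to hold, had medians near 0. Dendritic and postsynaptic mRNAs had a median of -0.03 over 22 genes, with 1 at an unadjusted p under 0.05 (4.55%, against 5.03% of all genes) and 0 past the adjusted threshold. Camk2a, the alpha subunit of the calcium- and calmodulin-dependent kinase of the postsynaptic density, was at 1686, 1463, 1665, 1834 and 1931 cpm in the RBP4 line and at 1565, 1305, 1726, 1463 and 1529 cpm in the VGAT line. Its log2 fold change was 0.18 (95% interval -0.14 to 0.49). Shank3, a scaffold of the postsynaptic density, was at 22.8, 20.5, 22.2, 23.9 and 17.3 cpm against 25, 22.6, 24.1, 21.0 and 22.1 cpm (-0.11, 95% interval -0.41 to 0.20). Dlg4, which encodes PSD-95, was at 50.6 ± 5.91 and 45.1 ± 5.97 cpm (0.17, 95% interval -0.14 to 0.47). For these 3 genes the whole interval lies within 0.5 of no change.

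The postsynaptic gene with the smallest p was Homer1, a scaffold of metabotropic receptors, at 110 ± 17.7 and 142 ± 22.4 cpm (-0.36, unadjusted p = 0.0384, edgeR adjusted p = 0.980). Gria2, an AMPA receptor subunit, had -0.26 (95% interval -0.80 to 0.27).

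Presynaptic genes had a median of -0.03 over 17 genes, with 0 past the adjusted threshold. An unadjusted p under 0.05 was reached by 1 (5.88%, against 5.03% of all genes). That gene was Pclo, the active zone scaffold piccolo, at 299, 280, 242, 335 and 274 cpm in the RBP4 line and at 388, 361, 356, 368 and 390 cpm in the VGAT line. The ranges did not overlap, though the log2 fold change was only -0.38 (SE 0.14, unadjusted p = 0.0131, edgeR adjusted p = 0.980). It was 0.04 in WCH. Cplx2, a complexin, had 0.32 and Syt1, the calcium sensor of release, -0.06 (95% interval -0.53 to 0.41).

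Nuclear and housekeeping RNAs gave a view of the preparation. Nuclear long noncoding RNAs had a median of -0.005 over 9 genes in SNF, with 0 at an unadjusted p under 0.05, and of 0.50 in WCH. Malat1, an abundant nuclear RNA, was at 5627, 3753, 1447, 3634 and 11620 cpm in the RBP4 line and at 5411, 2870, 1518, 9025 and 11520 cpm in the VGAT line. It was lowest in replicate 3 and highest in replicate 5 of both lines. Its log2 fold change of -0.22 has a 95% interval of -1.34 to 0.90, and so a 2-fold higher level of Malat1 in the VGAT line was not excluded.

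Immediate early genes, which follow neuronal activity, had a median of -0.06 over 16 genes with 0 at an unadjusted p under 0.05, and Egr1 was at 184 ± 66.0 and 214 ± 79.7 cpm. Cytoplasmic ribosomal protein genes had a median of 0.04 over 81 genes with 3 at an unadjusted p under 0.05 (3.7%, against 5.03% of all genes). Mitochondrial ribosomal protein genes had one of -0.02 over 74 genes with 3 (4.05%). Nuclear genes of the respiratory chain and ATP synthase had a median of 0.08 over 81 genes with 1 (1.23%). None of these genes passed the adjusted threshold with edgeR or DESeq2, and the summed level of every list overlapped between the lines.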

How the data were processed

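RNA-seq of 40 libraries was used, and the 10 SNF libraries (5 per line) were compared, with WCH, TRAP and ST libraries beside them. Lines and fractions came from the labels. Per the labels and the study's methods, the authors used STAR 2.0.4b for alignment and featureCounts 1.4.5 for counts of reads with a unique alignment. The counts as deposited are whole numbers with no normalization. CPM and RPKM values as deposited by the authors served as a check alone, and follow from the counts by division. Each file lists 41388 Ensembl genes, of which 40340 had a symbol in GENCODE M21 (GRCm38).

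Here 37 mitochondrial genes and 353 rRNA and tRNA genes were left out, as in the study's methods, and 40998 were kept. No factor beyond the kept total scaled a library. Whether the authors used one is not given in the sources used here. A gene was tested where 3 or more of the libraries compared reached 0.5 cpm. The quasi-likelihood test of edgeR 4.0.16 (R 4.3.3; glmQLFit, then glmQLFTest) had group as its variable, and p was adjusted by Benjamini-Hochberg, with 0.05 as the threshold. Standard errors and 95% intervals used edgeR's quasi-likelihood variance. Depth limits genes under 1 cpm most, since 1 count was worth between 0.0578 and 0.112 cpm. Intervals on count ratios are exact and cover counting error only. Copies were aligned with blastn 2.17.0. The kit does not mark strand, so that overlapping antisense genes cannot be told apart.

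Genes named are those of the constructs and within 500 kb of their endogenous loci, and genes called in WCH. Also named are the 10 on each side of smallest p that averaged 1 cpm or more and whose libraries do not overlap. The rest are Sst, Cort, Shank3 and Dlg4, and for each list the 2 members with the smallest p and the 2 most abundant. Where the RBP4 transgene is inserted is not given in the sources used here. The lists and libraries were chosen with earlier results of these data known. Withheld results are not reported here. The p-values measure the spread between pools. Alternatives were DESeq2 1.42.0, a likelihood ratio test, TMM and DESeq2 size factors, and other filters. Further ones were all 40 libraries in the fit, the replicate number as a block (the pool in the interaction), and libraries left out. After the data were seen, fits without replicate 3 of both lines, without the 3 RBP4 pools low in Xist, and combinations with the block were added. The tests were tried on simulated counts. Other steps used SciPy 1.17.1, pandas 2.3.3, NumPy 2.4.6 and, for figures, matplotlib 3.10.9, under Python 3.11.15.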

Additional observations from a re-analysis of the deposited data

Results flagged for a closer look

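A library was marked where it lay far from the other 4 of its group by Dixon's test, which chance does in about 5% of groups. Of 176 groups examined, 24 were marked, and those of the same library are not independent. The values are given without an explanation.

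Replicate 3 of both lines was marked for the mitochondrial share (40.2% and 41.9%) and for Slc1a2 (18200 cpm in RBP4 and 18230 cpm in VGAT libraries). In RBP4 replicate 3 the astrocyte sum was high (46180 cpm), while Penk (316 cpm) and the striatal sum (904 cpm) were low. In VGAT replicate 3, Ctss (354 cpm), Col1a1 (1330 cpm), Col1a2 (624 cpm), the microglia sum (1331 cpm), the meningeal sum (2268 cpm) and the sum of nuclear respiratory chain and ATP synthase genes (29050 cpm) were high, and Gria2 (1182 cpm) and the olfactory bulb sum (7.37 cpm) were low. The single count of Gm4737 in the RBP4 line (0.0978 cpm) was also in replicate 3.

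Among the other RBP4 libraries, Xist was high in replicate 1 (269.0 cpm), Tbr1 (59.8 cpm) and the layer 5 and pyramidal sum (2694 cpm) were high in replicate 4, and Rpl10a (2.53 cpm) and the Y-linked Eif2s3y (94.9 cpm) were high in replicate 5. Among the other VGAT libraries, Pmch was high in replicate 1 (24.9 cpm), Pcsk4 was low in replicate 2 (0.579 cpm) and the dendritic and postsynaptic sum was low in replicate 4 (8972 cpm).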

How the results depend on the processing

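The count of 0 genes called in SNF was also 0 with TMM and with DESeq2 size factors in edgeR. It was 0 with the stricter filter and with fewer genes left out. Without the 3 RBP4 pools low in Xist, where RBP4 replicates 1 and 3 alone were kept, the count was 0 as well. It was 11 with DESeq2, 7 with the likelihood ratio test, 3 with all 40 libraries in the fit and 2 without a filter on low counts, and 1 (Wdfy1) without replicate 3 of both lines. With each library left out in turn it was 0 to 1, Ccl17 without RBP4 replicate 2 and Wdfy1 without RBP4 replicate 3. Over all 29 fits of SNF, Wdfy1 was called in 13, Ccl17 and Rpl3-ps1 in 9 each, and Amn and Cbfa2t2 in 6 each. The cause of these changes was not tested. Whether same-numbered pools of the lines were prepared together is not given in the sources used here. In SNF, replicate number held 62.96% of the sum of squares over 4 degrees of freedom, line 10.36% over 1 and the residual 26.68% over 4. Shares over unlike degrees of freedom cannot be compared directly, since a factor without effect also holds more over 4 than over 1. The median Spearman correlation was 0.984 for same-numbered libraries across lines, 0.978 within a line and 0.971 for other pairs. Deviations of same-numbered SNF libraries correlated between -0.24 and 0.76 (mean 0.22, against -0.04 for other numbers), and not every library correlated best with its own number. With the replicate block the SNF count was 14, and 1714 genes had an unadjusted p under 0.05, against 799 without it. With the block and TMM the count was 15. With the block, leaving out number 1, 2, 3, 4 or 5 of both lines gave 14, 95, 2, 25 and 2.

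In WCH, 3 genes were called, against 40 with DESeq2, 41 with the likelihood ratio test, 16 without a filter, 7 with the replicate block and 3 to 18 with each library left out, the most without RBP4 replicate 2. In ST the count of 0 became 22 with DESeq2, 24 with the likelihood ratio test, 71 with all 40 libraries, 7 without a filter and 1 with TMM or with DESeq2 size factors in edgeR, and was 0 to 1 with each library left out, 1 without VGAT replicate 3 or 5. The TRAP count (4256 to 5649 with each library left out) and the interaction kept within 1.5 times under all alternatives run. The difference in mitochondrial share ran from -6.035 to 4.056 percentage points with each library left out, positive without RBP4 replicate 2 or 5 or VGAT replicate 3.

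Signs of named genes that did not pass changed as follows with each library left out (log2 fold changes). Rpl10a ran from -0.085 to 0.58, Gt(ROSA)26Sor from -0.17 to 0.20, Xist from -5.37 to 0.61, Slc1a2 from -0.31 to 0.44, Col1a1 from -1.63 to 0.42, Col1a2 from -1.44 to 0.049, Syt1 from -0.21 to 0.064 and Malat1 from -0.75 to 0.15. With the replicate block, Gt(ROSA)26Sor was -0.0069, with the block and TMM -0.0093, and with the block and number 1, 3 or 5 left out -0.18, -0.025 and -0.11. With the block and number 4 left out Malat1 was 0.10, and with number 1 left out Slc1a2 was -0.042. Without the 3 pools low in Xist, Xist was 0.98, Ctss 0.010 and Aqp4 0.019. Depth limits the genes under 1 cpm, where few intervals lie within 2-fold, and the number of pools limits genes such as Malat1 and Slc1a2 that vary between them.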
